A study of Mus musculus with 10 samples.

Results

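The genes described are chromatin remodelers and histone demethylases in long-term hematopoietic stem cells (LT-HSCs) of the mouse fetal liver. They were chosen by symbol alone, as the rows of the deposited gene table named Chd1 to Chd9, Smarc, Arid1 to Arid5, Ino80 or Kdm1 to Kdm8. The rule found 55 of 17404 genes, 9 of them Chd, 15 Smarc, 9 Arid, 6 Ino80 and 16 Kdm genes. The row names follow the symbol and not the product, so Smarca5.ps and Smarce1.ps1, which are processed pseudogenes, and Ino80dos, an antisense RNA of the Ino80d locus, are among them. All 55 passed the filter of at least 11 counts over the libraries.

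LT-HSCs were sorted at E14.5 and profiled by bulk RNA-seq of SmartSeq2 libraries. The 6 KO libraries are from Tnfrsf11aCre; Spi1f/f embryos and the 4 WT libraries from Tnfrsf11a+/+; Spi1f/f littermates, both on a C57BL/6 background. Both groups therefore carry the floxed Spi1 alleles and differ in the Cre allele, which is active in the precursors of yolk sac-derived macrophages. Spi1 encodes PU.1, a factor that macrophages need to form, so the comparison asks how LT-HSCs differ where fetal macrophages were depleted. The stem cells were not the cells aimed at by the Cre.

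Remodelers use the energy of ATP to slide, eject or exchange nucleosomes. The Smarc genes encode subunits of the BAF and PBAF complexes and, with Smarca1 and Smarca5, the ISWI motors, the Chd genes encode a further family of motors that includes the NuRD subunits Chd3 and Chd4, and the Ino80 genes encode parts of the INO80 complex, which acts on the histone variant H2A.Z. Of the Arid genes, whose products share a DNA-binding domain, Arid1a, Arid1b and Arid2 belong to BAF and PBAF. The Kdm genes encode lysine demethylases, by the flavin-dependent LSD1 route in Kdm1a and Kdm1b and by a JmjC domain in the others, and several of these genes are required in blood stem cells.

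The libraries held 5315435 to 30941726 counts in KO and 7633446 to 18256010 in WT. Counts are given as CPM, scaled to library size after TMM normalization, and fold changes as log2 of KO over WT. Spi1 itself, summed over all its transcripts, was at 45.6, 76.3, 9.10, 101, 65.5 and 65.7 CPM in KO libraries 15405, 15406, 15409, 15411, 15412 and 15415 and at 6.22, 33.8, 50.1 and 7.64 CPM in WT libraries 15416, 15417, 15418 and 15420 (log2 fold change 1.31, SE 0.69, adjusted p = 0.337, edgeR quasi-likelihood test with Benjamini-Hochberg adjustment). Such sums do not resolve the deleted exon, and the deletion was aimed at other cells, so they are no check of the labels. Tnfrsf11a, which carries the Cre, was at 1.45 to 4.11 CPM in KO and 0.683 to 5.8 in WT.

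Libraries differed in sex-linked and marker genes. All 4 WT libraries expressed Xist, at 106 to 149 CPM, and so did KO libraries 15406 and 15409, at 361 and 346 CPM. The other 4 KO libraries held 1.36 to 2.38 CPM of Xist and 23.0 to 32.0 CPM of the Y-linked Kdm5d. No WT library lacked Xist, so the sex of the embryo and the genotype cannot be told apart among the latter 4. The 9 erythroblast markers present summed to 2115 to 94931 CPM in KO and 2213 to 240134 CPM in WT, the highest being WT 15418 and KO 15415, none of them had a positive fold change, and Epor fell. The 8 LT-HSC markers summed to 292 to 1433 CPM in KO, median 1004, and 306 to 491 in WT, median 448. Every KO library but 15409, the minimum, was at 698 or more, above the WT libraries. Of the 8 markers 7 had a positive fold change, and 2, Hlf and Mecom, rose. The 12 macrophage markers summed to 203 to 920 CPM in KO and 99.9 to 702 in WT, with Marco and Clec4f at 0 in all KO libraries. Of these 12, 2 had a positive fold change, and Marco fell. The 7 hepatoblast markers summed to 63.9 to 6233 CPM in KO and 155 to 4333 in WT, and the 7 granulocyte markers to 10.7 to 997 and 6.07 to 2023 CPM. All 7 hepatoblast and 4 of the 7 granulocyte markers had a positive fold change, with 0 calls. In bulk libraries fewer cells of a type and less RNA per cell cannot be told apart, and the part of these markers in the results below was not tested.

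In KO LT-HSCs 4 of the 55 genes rose and 0 fell at an adjusted p below 0.1, where 1.32% of the 16725 genes tested rose and 2.67% fell. The 4 were Ino80d, a regulatory subunit of INO80, Chd6, a remodeler of the subfamily of Chd7 to Chd9, Kdm5b, a demethylase of H3K4me3, and Kdm6b, a demethylase of H3K27me3. Among genes of the same transcript length as the 55, on average 2.02% rose and 1.18% fell. At an unadjusted p below 0.05 there were 16 genes on the higher and 2 on the lower side, beside 8.6% and 10.2% of all genes. Every KO library lay above every WT library for 5 genes, Ino80d, Chd6, Kdm5b, Kdm2a and Arid1a, and below for 0, where 2.88% and 3.48% of all genes did so. The fold change was positive for 41 of the 55 and for 53.1% of all genes, and its median was 0.33, beside 0.06 over all genes. In DESeq2 with the fold-change threshold of 0.1 that the study's methods name, 7 of the 55 rose and 0 fell, where 3.5% and 3.29% of all genes did, and without a threshold 12 rose and 0 fell, where 5.97% and 6.85% did. No gene of the 55 passed an adjusted p below 0.05 in edgeR.

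Ino80d had the largest positive fold change of the 55. Its KO libraries spanned 23.4 to 38.3 CPM with a median of 27.6, and the WT libraries, given here and below in the order 15416, 15417, 15418 and 15420, were at 16.1, 13.9, 8.43 and 5.09 CPM. Each KO library lay above each WT library. The difference was 2.68-fold (log2 1.42, SE 0.34, adjusted p = 0.0824, edgeR). The 2 KO libraries with Xist, at 23.4 and 26.0 CPM, also exceeded the WT libraries, all of which express it. Ino80d lies on chr1:62958418-63114667 (GRCm38, minus strand), and 2.43% of its exonic bases overlap Ino80dos on the other strand, whose reads cannot be separated in libraries that do not mark strand. Ino80dos itself was at 2.92 to 5.78 CPM in KO and 1.42 to 3.90 in WT, and 31.9% of its exonic bases overlap other genes, Ndufs1 as well as Ino80d.

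Chd6 was at 42.5 to 71.9 CPM in KO, median 54.4, and at 23.8, 28.7, 27.1 and 36.7 CPM in WT. The groups did not overlap, with KO 15406 and 15409, which express Xist, the lowest of the KO libraries at 42.5 and 45.3 CPM. The difference was 1.89-fold (log2 0.92, SE 0.22, adjusted p = 0.0824, edgeR). Kdm5b, which opposes the active promoter mark H3K4me3, was at 83.7 to 161 CPM in KO, median 99.8, and at 59.5, 64.8, 51.8 and 61.8 CPM in WT, again without overlap. It differed 1.83-fold (log2 0.87, SE 0.21, adjusted p = 0.0824, edgeR), and the 2 KO libraries with Xist held 116 and 92.8 CPM. Chd6 lies on chr2:160946978-161109075 (minus strand) and Kdm5b on chr1:134560171-134635285 (plus strand), and neither shares an exonic base with another annotated gene.

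Kdm6b, also known as JMJD3, removes the Polycomb mark H3K27me3 and is induced in inflammatory signaling. Its KO libraries spanned 43.3 to 108 CPM with a median of 78.0, and the WT libraries were at 24.6, 49.5, 43.2 and 19.5 CPM. Only KO 15409, the lowest of its group, fell within the WT range. The difference was 2.31-fold (log2 1.21, SE 0.32, adjusted p = 0.0905, edgeR). Kdm6b lies on chr11:69398508-69413675 (minus strand), and 4.11% of its exonic bases overlap the antisense gene Kdm6bos.

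These 4 calls depended on which libraries were included. Without KO 15405, 15406, 15411, 15412 or 15415, or without WT 15416, 0 of the 55 passed, and without KO 15409 7 did, the 4 with Arid5a, Chd9 and Chd3. With Xist expression added as a covariate 0 passed, and the fold changes of the 4 were then 1.25 for Ino80d, 0.70 for Chd6, 0.85 for Kdm5b and 0.997 for Kdm6b. Among libraries that express Xist its level was higher in KO than in WT, so this covariate does not stand for sex alone. The share of all genes that passed in these fits is not given here, so these counts cannot be read as particular to the 55.

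**Figure D1:**
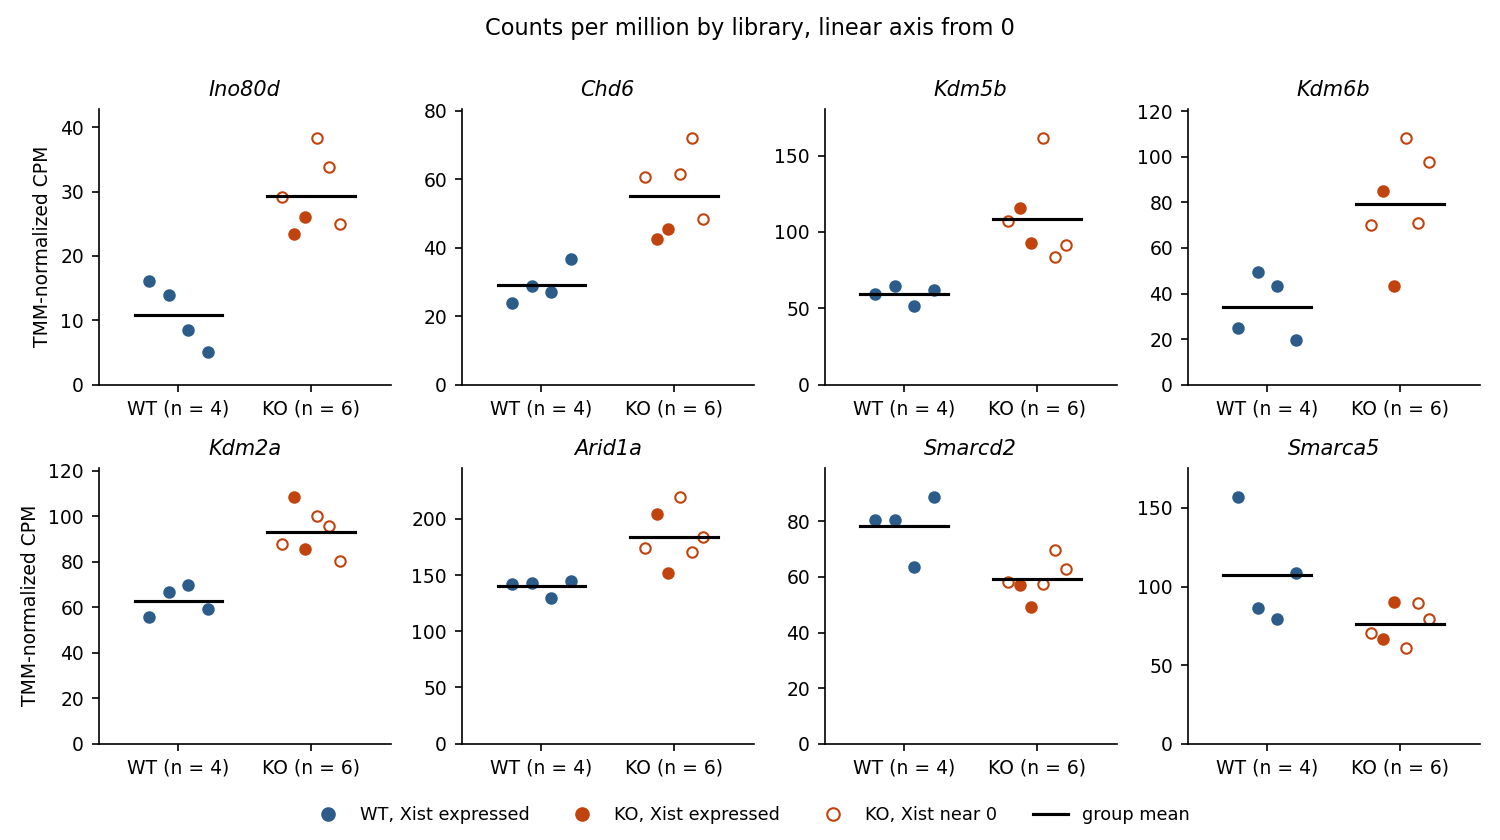
TMM-normalized CPM (y axes, linear, from 0) of 8 genes in each of 4 WT and 6 KO libraries, one point a library, with filled points for libraries that express Xist and bars for the group means. The 6 KO libraries lie above the 4 WT libraries for Ino80d, Chd6, Kdm5b, Kdm2a and Arid1a, 5 of 6 do for Kdm6b, and for Smarcd2 and Smarca5 the KO means are the lower ones.

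Promoter sequences are shown for 4 genes with a RefSeq entry, Chd6 and Kdm5b, which rose, and Smarcd2 and Smarca5, the genes with the smallest p on the lower side, so that the regions before their RefSeq starts can be compared. Each is the 250 bases before a start that RefSeq gives in GRCm38.p6, written 5′ to 3′ on the strand of the gene. These starts are not those of the Gencode gene ends. The Smarcd2 window lies wholly within the Gencode gene, and the windows of Smarca5 and Kdm5b reach into theirs. Capitals mark matches on either strand to a CCAAT box (CCAAT), a GC box (GGGCGG), an ETS core (CCGGAA), the motif of many ETS factors, or a GATA core (AGATAA). The windows are chr2:161109087-161109336 (minus strand) for Chd6, chr1:134559928-134560177 (plus strand) for Kdm5b, chr11:106267633-106267882 (minus strand) for Smarcd2 and chr8:80739460-80739709 (minus strand) for Smarca5.
Chd6: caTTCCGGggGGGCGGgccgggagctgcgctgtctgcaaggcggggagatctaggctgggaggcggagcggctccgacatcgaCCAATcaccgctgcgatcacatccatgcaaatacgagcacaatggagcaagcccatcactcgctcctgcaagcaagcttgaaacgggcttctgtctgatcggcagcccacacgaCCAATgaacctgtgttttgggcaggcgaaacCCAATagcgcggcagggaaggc
Kdm5b: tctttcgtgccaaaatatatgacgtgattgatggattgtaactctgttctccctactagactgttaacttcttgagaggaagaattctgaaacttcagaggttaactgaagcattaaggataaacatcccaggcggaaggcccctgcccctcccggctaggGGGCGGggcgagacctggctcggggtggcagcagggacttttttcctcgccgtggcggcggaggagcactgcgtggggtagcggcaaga
Smarcd2: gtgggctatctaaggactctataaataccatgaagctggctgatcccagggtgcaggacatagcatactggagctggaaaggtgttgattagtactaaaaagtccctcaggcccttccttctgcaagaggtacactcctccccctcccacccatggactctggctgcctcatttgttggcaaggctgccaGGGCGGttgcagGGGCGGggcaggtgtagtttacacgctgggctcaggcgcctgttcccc
Smarca5: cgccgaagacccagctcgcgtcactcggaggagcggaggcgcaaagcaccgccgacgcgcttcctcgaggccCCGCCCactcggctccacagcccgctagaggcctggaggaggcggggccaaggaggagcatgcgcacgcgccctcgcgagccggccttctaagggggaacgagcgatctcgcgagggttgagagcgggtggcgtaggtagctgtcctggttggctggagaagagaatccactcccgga

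The Chd6 window holds 3 CCAAT boxes, 1 GC box and 1 ETS core. The windows of Kdm5b and Smarca5 hold 1 GC box each and that of Smarcd2 2, with none of the other motifs. Of the 55 genes 38 had an entry, and 28 of these (73.7%) held a GC box, 14 (36.8%) a CCAAT box, 10 (26.3%) an ETS core and 3 (7.89%) a GATA core. Over the 12845 promoters of genes tested, the shares were 53.1%, 36%, 18.8% and 7.25%. A match is a run of letters and no measurement of binding.

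Of the 9 Chd genes 8 had a positive fold change, 1 rose, and the median was 0.51. Chd9, the closest relative of Chd6 here by subfamily, was at 21.7 to 63.4 CPM in KO, median 47.3, and at 19.8, 26.3, 20.3 and 31.7 CPM in WT, with KO 15409 inside the WT range (log2 0.87, SE 0.30, adjusted p = 0.149, edgeR). Chd3, a NuRD motor, was at 23.9 to 113 CPM in KO, median 60.2, and at 13.8, 36.9, 39.8 and 39.2 CPM in WT. Its WT 15416 value lay far below the other WT values, and its fold change was 1.03 (SE 0.41, adjusted p = 0.197, edgeR). Chd4, the main NuRD motor of blood cells, was at 125 to 216 CPM in KO, median 171, and at 137, 156, 141 and 125 in WT, where the groups overlapped (log2 0.29, SE 0.18, adjusted p = 0.395, edgeR). Chd2, Chd7, which is mutated in CHARGE syndrome, and Chd8 had fold changes of 0.26 to 0.51, and Chd5 was detected at 0 to 2.05 CPM in KO and 0 to 1.37 in WT.

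The row named Chd1 was the 1 gene of the family with a negative fold change, and it holds more than Chd1. In every library it equalled, within 0.850 counts, the sum of the estimates for the Chd1 transcripts and for those of Riok2, a cytoplasmic kinase of ribosome maturation that has no row of its own. Riok2 made up 27.1% to 40.3% of the row in KO and 37.9% to 62.6% in WT. The row gave a log2 fold change of -0.22 (SE 0.23, adjusted p = 0.657). Chd1 counted from its own transcripts, an alternative chosen after seeing the data, was at 38.7 to 66.3 CPM in KO, median 46.7, and at 42.2, 31.5, 44.8 and 56.8 CPM in WT. The groups overlapped, and the log2 fold change was 0.19 (SE 0.22, 95% interval -0.29 to 0.67, adjusted p = 0.691, edgeR). The direction of the Chd1 row thus turned when Riok2 was left out, with neither value past the test.

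The 15 Smarc genes had the family median nearest to 0, with 8 positive and 7 negative fold changes, the median at 0.01 and 0 calls in either direction. Smarcad1, a motor that restores silent chromatin after replication, was at 21.9 to 47.0 CPM in KO, median 32.1, and at 18.4, 22.3, 19.1 and 16.3 CPM in WT. Only its lowest KO library lay within the WT range, and the log2 fold change was 0.81 (SE 0.27, adjusted p = 0.137, edgeR). Smarcd1, 1 of 3 alternative BAF60 subunits, had a fold change of 0.71 (SE 0.29, adjusted p = 0.214, edgeR).

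Smarcd2, the BAF60 subunit needed for granulocyte maturation, was on the lower side at 49.3 to 69.6 CPM in KO, median 57.9, and 80.5, 80.3, 63.5 and 88.6 CPM in WT. Of the 6 KO libraries 5 lay below every WT library (log2 -0.40, SE 0.17, adjusted p = 0.230, edgeR). Smarca5, the ISWI motor also called SNF2H, was at 60.9 to 89.9 CPM in KO, median 74.8, and at 157, 86.2, 79.0 and 109 CPM in WT, with WT 15416 the highest and 4 KO libraries below every WT library (log2 -0.50, SE 0.22, adjusted p = 0.241, edgeR). Neither passed the test over all genes. Smarca5 alone of the 55 was called lower once a trend on transcript length was taken out (log2 -0.95, adjusted p = 0.0836, edgeR), in a fit that called 0.246% of genes higher and 2.54% lower.

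None of the core BAF genes passed the test. Smarca4, or BRG1, the main BAF motor, was at 274 to 361 CPM in KO, median 336, and at 371, 315, 297 and 271 in WT, and its log2 fold change was 0.07 with a 95% interval of -0.26 to 0.40. Its alternative Smarca2, or BRM, was at 65.2 to 92.4 CPM in KO, median 85.2, and at 41.2, 61.4, 43.5 and 107 in WT (log2 0.38, SE 0.27, adjusted p = 0.468, edgeR). The scaffold subunit Smarcc1 was at 76.8 to 142 CPM in KO, median 95.1, and at 152, 108, 85 and 91.7 in WT (log2 -0.12, 95% interval -0.59 to 0.36). Groups overlapped for all 3. Its paralog Smarcc2 was at 28.7 to 80.1 CPM in KO, median 56.6, and at 34.2, 44.7, 63.0 and 43.6 in WT (log2 0.23, 95% interval -0.37 to 0.83). Smarce1, a BAF subunit with an HMG box, was at 139 to 199 CPM in KO, median 154, and at 163, 194, 191 and 205 in WT, with 5 KO libraries below every WT library and KO 15409 among the WT values (log2 -0.24, SE 0.16, adjusted p = 0.433, edgeR). Smarcb1, the SNF5 subunit, had a log2 fold change of 0.01 with a 95% interval of -0.41 to 0.42.

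The remaining Smarc rows were low or of other kinds. Smarca1, the second ISWI motor, was at 0.914 to 4.82 CPM in KO, median 3.53, and at 0.379, 1.24, 1.55 and 6.23 in WT, with overlap (log2 0.49, SE 0.78, adjusted p = 0.790, edgeR). Smarcal1, which remodels stalled replication forks, had a log2 fold change of 0.33, and Smarcd3, of whose exonic bases 48.2% overlap Chpf2 and a miRNA gene, one of -0.20, neither past the test. The pseudogene Smarca5.ps was at 0 to 0.773 CPM in KO with a median of 0, and at 2.65, 0.177, 0 and 0 CPM in WT. Smarce1.ps1 was at 0 to 9.48 CPM in KO, also with a median of 0, and at 8.95, 3.19, 0.961 and 19.1 CPM in WT. Both resemble their parent genes in sequence, so the assignment of their reads is uncertain.

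All 9 Arid genes had a positive fold change, with a median of 0.68, and 0 of them passed the test. The 9 include BAF, PBAF and other DNA-binding proteins. Arid5a, which stabilizes inflammatory mRNAs, was at 13.6 to 50.4 CPM in KO, median 29.3, and at 9.93, 9.67, 14.49 and 15 CPM in WT, with 1 KO library within the WT range (log2 1.25, SE 0.37, adjusted p = 0.106, edgeR). Arid1b was at 38.8 to 67.4 CPM in KO, median 55.5, and at 18.4, 39.3, 32.7 and 40.6 in WT (log2 0.76, SE 0.26, adjusted p = 0.151, edgeR). Again 5 KO libraries lay above all WT libraries.

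Arid3a, known as Bright in B cells, was at 10.8 to 25.1 CPM in KO, median 19.3, and at 5.08, 10.03, 11.9 and 10.9 in WT (log2 0.94, SE 0.36, adjusted p = 0.187, edgeR). Arid1a, the usual partner of Smarca4 in BAF, was at 152 to 219 CPM in KO, median 179, and at 142, 143, 130 and 144 in WT. Its groups did not overlap, although its fold change was small (log2 0.40, SE 0.16, adjusted p = 0.199, edgeR). Arid2, which defines PBAF, Arid3b, Arid4a, Arid4b and Arid5b had log2 fold changes of 0.26 to 0.84, with overlapping groups.

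Of the 6 Ino80 rows, Ino80d rose and 3 had a negative fold change, with a median of 0.25 that dropped to 0.052 without WT 15420. The motor Ino80 was at 27 to 47.0 CPM in KO, median 36.2, and at 19.7, 27.8, 28.0 and 5.24 in WT, where WT 15420 was the lowest (log2 0.88, SE 0.39, adjusted p = 0.241, edgeR). Ino80c was at 42.4 to 67.8 CPM in KO, median 59.6, and at 92.1, 76.4, 68.7 and 61.0 in WT, with 4 KO libraries below every WT library (log2 -0.36, SE 0.19, adjusted p = 0.337, edgeR). The small subunits Ino80b and Ino80e had fold changes of -0.49 and -0.08. The subunits of 1 complex therefore stood on both sides of 0, from 1.42 in Ino80d to -0.49 in Ino80b.

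Of the 16 Kdm genes 13 had a positive fold change, 2 rose and the median was 0.27. Kdm2a, a demethylase of H3K36 that binds CpG islands, was at 80.3 to 108 CPM in KO, median 91.7, and at 55.7, 66.8, 70.0 and 59.2 CPM in WT. Its groups did not overlap (log2 0.56, SE 0.17, adjusted p = 0.110, edgeR). The H3K9 demethylases Kdm3a and Kdm3b had log2 fold changes of 0.58 and 0.68 (SE 0.24 and 0.30, adjusted p = 0.213 and 0.240, edgeR). The 7 genes of the Kdm2, Kdm3 and Kdm4 groups, listed as H3K9 and H3K36 demethylases, were all on the positive side, from 0.16 to 0.81, with 0 calls. They are Kdm2a, Kdm2b, Kdm3a, Kdm3b, Kdm4a, Kdm4b and Kdm4c. That list is not every such enzyme, and it leaves out Kdm7a and Kdm8, at 0.24 and -0.09.

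Kdm1a, or LSD1, the enzyme of the CoREST repressor complex, stood lowest of the family. It was at 57.0 to 103 CPM in KO, median 63.0, and at 94.6, 92.2, 68.3 and 170 CPM in WT, with 4 KO libraries below every WT library (log2 -0.51, SE 0.28, adjusted p = 0.346, edgeR). Kdm1b, Kdm5a, Kdm7a and Kdm8 had log2 fold changes of -0.09 to 0.27 and did not pass the test.

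Kdm5c, Kdm6a and the Y-linked Kdm5d bear on the sex of the embryos. Kdm6a, or UTX, was at 19.6 to 42.4 CPM in KO, median 23.4, and at 28.4, 28.5, 39.2 and 17.1 in WT (log2 -0.03, 95% interval -0.67 to 0.61). Read from the transcript tables, Kdm6a was at 34.6 and 42.4 CPM in the 2 KO libraries with Xist and at 19.7 to 23.9 CPM in the 4 without it. With Xist as a covariate its fold change turned to 0.26 (adjusted p = 0.740, edgeR). Kdm5c was at 30.9 to 75.9 CPM in KO, median 40.9, and at 27.5, 35.0, 74.5 and 30.3 in WT, and WT 15418 stood apart from the others (log2 0.27, SE 0.35, adjusted p = 0.737, edgeR). The KO libraries with Xist held 30.9 and 75.9 CPM, the ends of the KO range, and those without it 38.6 to 75.7 CPM. Kdm5d was at 2.30 to 5.29 CPM in the libraries with Xist, beside 23.0 to 32.0 in those without.

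**Figure D2:**
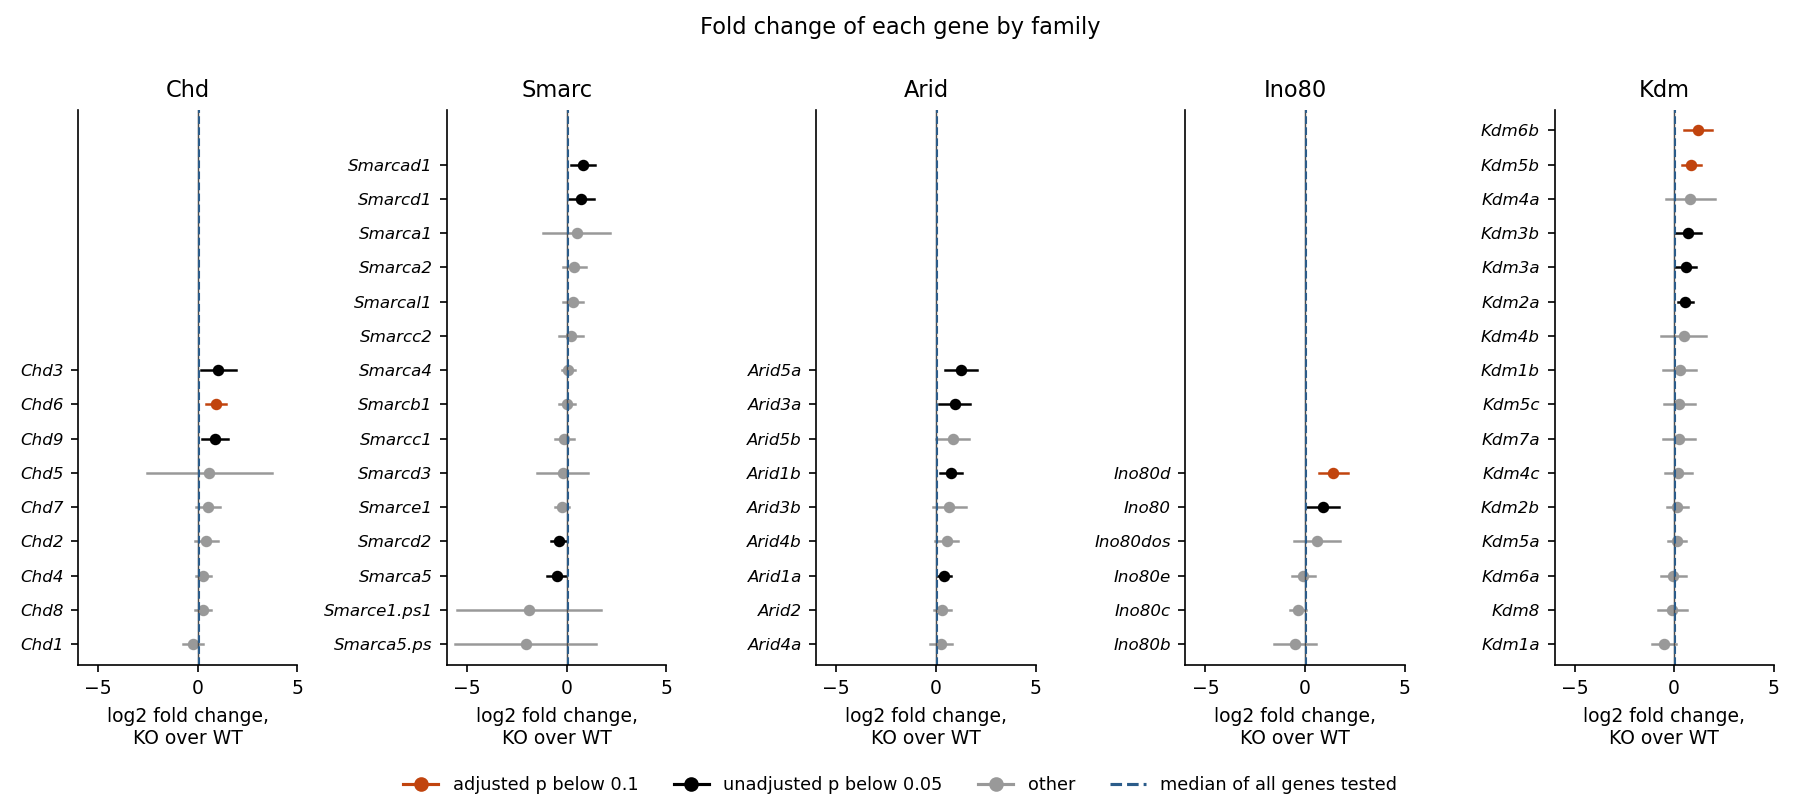
Log2 fold change of KO over WT (x axes) for each of the 55 genes in 5 families, with points for the edgeR estimates and lines for 95% intervals, colored by the test passed, and a dashed line at the median of all genes tested, 0.06. All 9 Arid genes and 8 of 9 Chd genes lie to the right of 0, the Smarc genes lie on both sides, and the 2 pseudogene rows have the widest intervals of their family.

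Transcript length moved with the fold change in these libraries. Over 16286 genes with a length, Spearman's rho between expression-weighted transcript length and log2 fold change was 0.23, and over the 55 genes it was 0.32, given as descriptions across genes of the same libraries. When all genes were ranked by length into 10 equal classes, the median fold change went from -0.39 in the shortest class to 0.40 in the longest, and the share of genes that rose from 0.123% to 3.97%. Of the 55, 15 lay in the longest class and 0 in the shortest, and their median length was 3123 bases, beside 2276 over all genes.

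Set against the median of its own length class, a gene of the 55 stood 0.20 higher in the median, with 34 above and 21 below. The 4 genes that rose all lie in the longest class, where the median was 0.40, and stood above it by 1.02 for Ino80d, 0.81 for Kdm6b, 0.52 for Chd6 and 0.47 for Kdm5b. They were named by their calls, so a place above that median is no separate support. The class spans 4807 to 84395 bases, and Ino80d, at 11462, was the longest of the 55. Arid1a stood at -0.01 from the median of its class. Arid5a, Chd3 and Chd9, shorter by the weighted length, stood 1.09, 0.96 and 0.90 above theirs. Their classes rest on weighted lengths of 2810, 2479 and 1653 bases, which take in short non-coding transcripts. Each also has a longer coding transcript, of 4329, 7261 and 11565 bases, so their class depends on how length is defined. By family, the median differences from the length class were 0.44 for Arid, 0.27 for Chd, 0.25 for Ino80, 0.10 for Kdm and -0.05 for Smarc.

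When a loess trend of each library on length was fitted as an offset, the median of all genes moved from 0.06 to -0.17 and that of the 55 from 0.33 to 0.018, so that the 55 stood above the median of all genes in both. The offset fit called 0 of the 55 higher, where it called 0.246% of all genes with a length higher. Ino80d then had a log2 fold change of 0.72 (adjusted p = 0.282), Kdm6b of 0.75 (adjusted p = 0.215), Chd6 of 0.48 (adjusted p = 0.275) and Kdm5b of 0.43 (adjusted p = 0.337), all by edgeR. The fold changes of Smarca4, Arid1a, Chd4 and Smarcc2 turned negative, at -0.39, -0.18, -0.16 and -0.12. The median of all genes in this fit was -0.17, so these signs alone do not show a reversal.

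**Figure D3:**
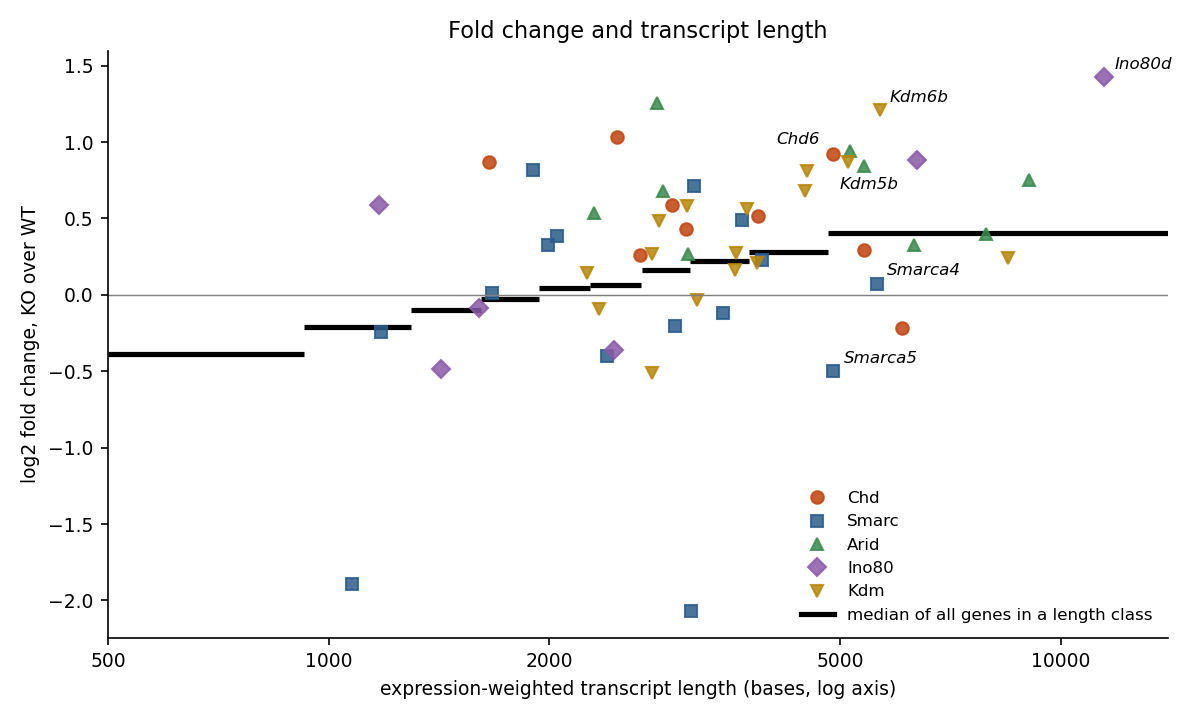
Log2 fold change of KO over WT (y axis) against expression-weighted transcript length in bases (x axis, log scale) for the 55 genes, marked by family, with black bars for the median of all genes in each length class, the first and last bars ending at the limits of the axis. The bars climb from -0.39 to 0.40, and Ino80d, Kdm6b, Chd6 and Kdm5b lie above the bar of the longest class while Smarca4 and Smarca5 lie below it.

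Library by library, the median deviation of the 55 genes from their mean log2 CPM ran from -0.02 to 0.33 in KO and from -0.36 to -0.14 in WT, without overlap. The same median over other genes of the same length classes ran from 0.03 to 0.11 in KO and from -0.20 to -0.06 in WT. The difference of these medians ran from -0.06 to 0.23 in KO and from -0.20 to -0.05 in WT, and KO 15409 fell among the WT libraries. That library held the lowest LT-HSC marker sum and the highest macrophage marker sum of the KO group, 292 and 920 CPM. WT 15416, the lowest library, had Chd and Arid medians of -0.74 and -0.82 and a Smarc median of 0.21, so its low value did not extend to the Smarc genes. The 55 rows took 0.319% to 0.423% of all counts in KO and 0.208% to 0.296% in WT, with the minimum in WT 15418, the library with 240134 CPM of erythroblast markers.

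**Figure D4:**
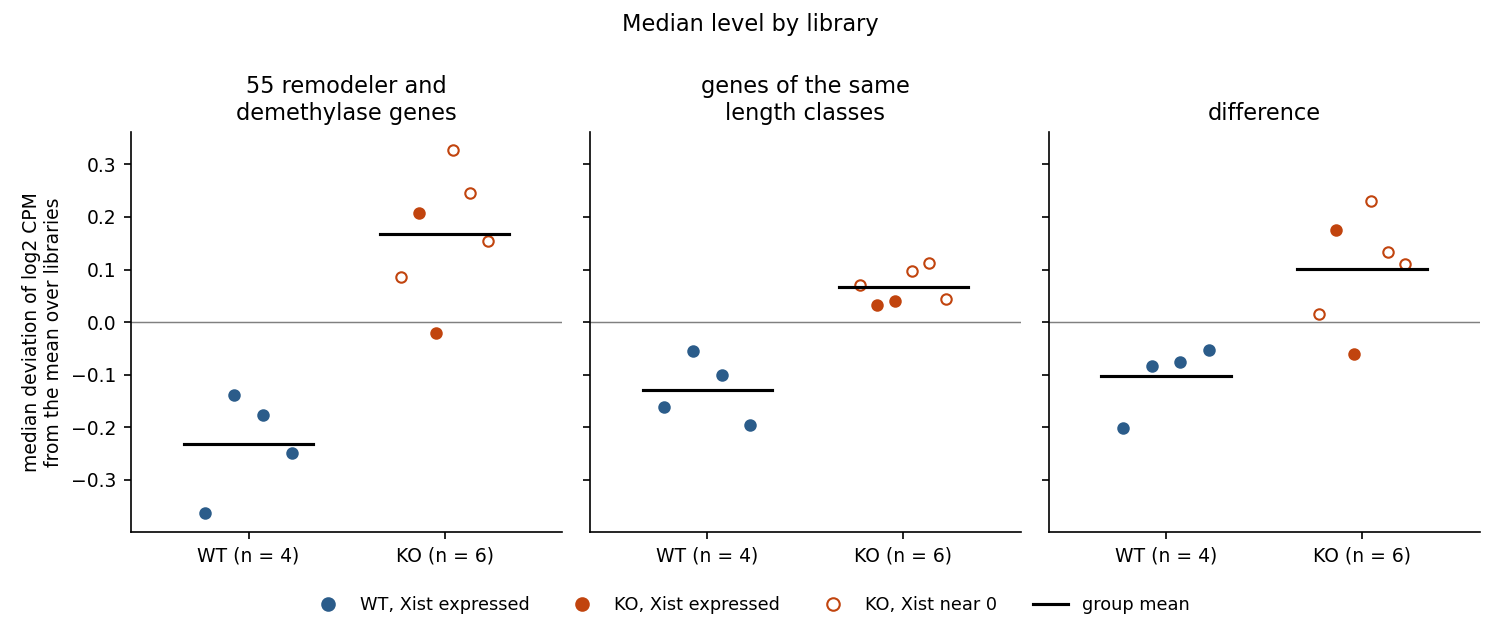
Median over genes of the deviation of log2 CPM from the mean over the 10 libraries (y axis) for each library, for the 55 genes, for other genes of the same length classes and for the difference of these, with filled points for libraries that express Xist and bars for group means. The KO and WT libraries are apart for the 55 genes and for genes of the same length, and in the difference KO 15409, at -0.06, lies within the WT libraries.

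Ratios of paralogs within a library do not depend on its depth. For 6 pairs of alternative subunits or enzymes, the difference between groups in the log2 ratio of counts was tested by a two-sided exact permutation test over all 210 ways to assign the libraries to groups of 6 and 4, for which the smallest p is 0.00952. None passed an adjusted p below 0.05. The Kdm6b over Kdm6a ratio was 0.32 to 2.18 in KO, median 1.74, and -0.21, 0.80, 0.14 and 0.19 in WT. It differed by 1.28 (95% interval 0.20 to 2.04, exact permutation p = 0.0190, adjusted over 6 pairs 0.114), with 5 of 6 KO libraries above every WT library. The KO libraries with Xist held the 2 lowest KO ratios, 1.001 and 0.32, and their part in this difference was not tested.

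The Chd3 over Chd4 ratio was -2.38 to -0.93 in KO, median -1.46, and -3.31, -2.08, -1.82 and -1.67 in WT, with 5 KO libraries above every WT library. The difference was 0.72 (95% interval -0.22 to 1.68, exact permutation p = 0.114, adjusted 0.3). Smarca2 over Smarca4 differed by 0.41 (-0.56 to 1.15), Smarca1 over Smarca5 by 1.38 (-0.49 to 3.73), Arid1b over Arid1a by 0.41 (-0.10 to 1.04) and Smarcc2 over Smarcc1 by 0.31 (-0.65 to 1.37), with adjusted exact permutation p of 0.3 to 0.486. These intervals hold both 0 and differences of 1 or more. Without KO 15409 the ratios of Kdm6b to Kdm6a and of Chd3 to Chd4 differed by 1.52 and 0.90, each with an adjusted exact permutation p of 0.0476. KO 15409 was the only KO library not above every WT library in both ratios. Leaving it out therefore separates the groups fully, which fixes the p at its smallest. In the other 11 alternatives the adjusted exact permutation p was 0.114 to 0.286 for Kdm6b over Kdm6a and 0.171 to 0.75 for Chd3 over Chd4.

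**Figure D5:**
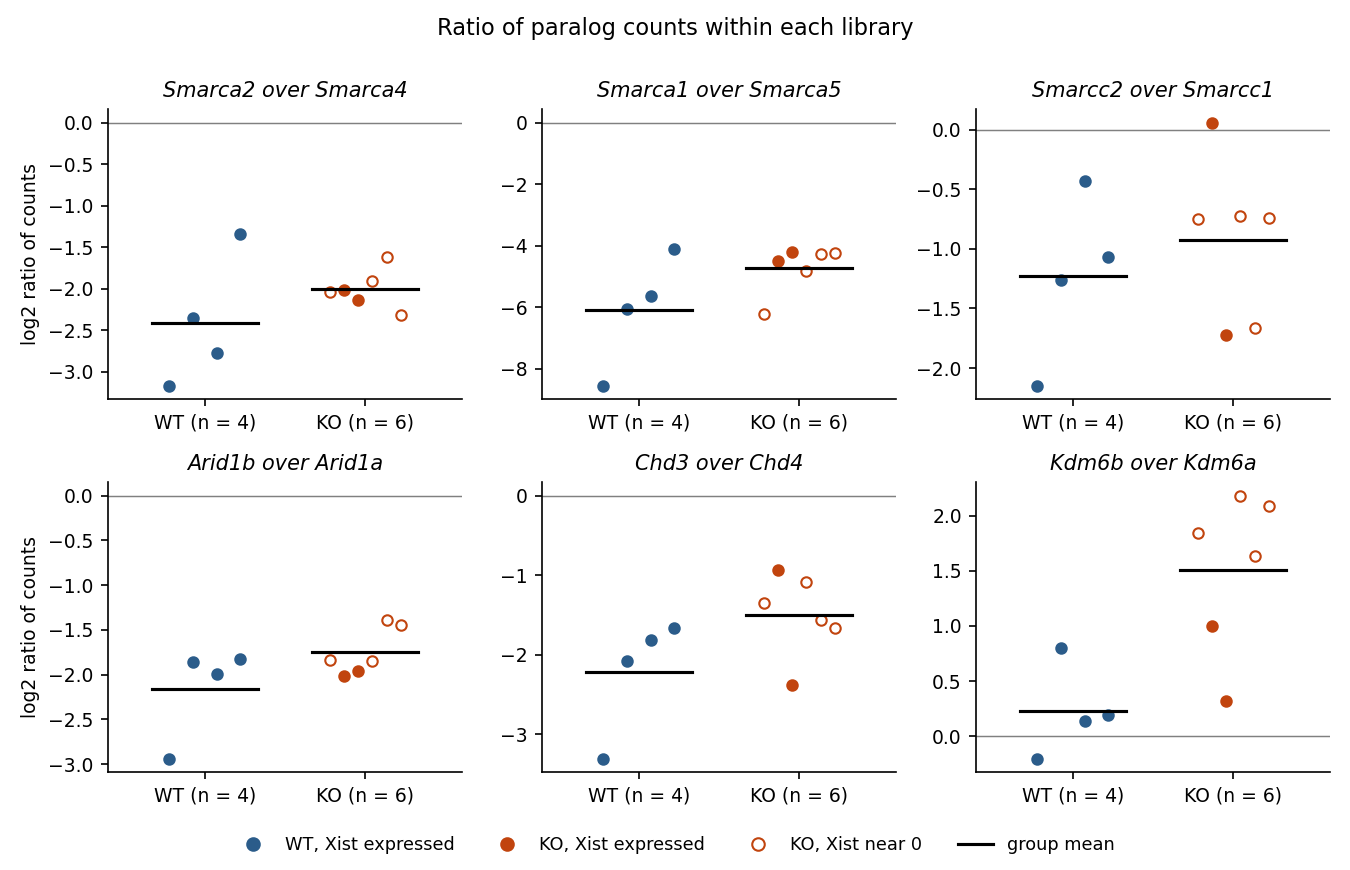
Log2 ratio of the counts of 2 paralogs (y axes, not scaled for gene length) in each of 4 WT and 6 KO libraries for 6 pairs, with bars for group means and filled points for libraries that express Xist. WT 15416 has the lowest ratio in all 6 panels, and in the Kdm6b over Kdm6a panel 5 of 6 KO libraries lie above the WT libraries.

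Per length, in the deposited TPM, which scale transcript estimates for length and depth, summed by gene, the highest of the 55 in WT were Smarce1, Kdm5a, Smarcb1, Ino80e and Smarca4, with medians of 151, 76.8, 75.4, 46.5 and 46.5 TPM. Their WT ranges were 104 to 180 TPM for Smarce1, 33.9 to 113 for Kdm5a, 53.0 to 95.3 for Smarcb1, 25.1 to 74.5 for Ino80e and 32.1 to 55 for Smarca4. Each overlaps the next in that order, so the order of neighbors is not set. These sums take in non-coding transcripts. For Smarce1 such transcripts, among them ones of 610 and 481 bases beside the coding one of 2919, took 32.5% to 45.1% of the WT counts. Its 151 TPM is therefore not the level of the coding transcript. The lowest coding genes were Chd5, Smarca1 and Kdm4a at 0.215, 0.224 and 0.513 TPM. Ino80d, the gene with the largest positive fold change, was among the lowest in level, at 0.373 to 1.58 TPM in WT and 1.59 to 3.88 in KO. In WT the H3K4 demethylase Kdm5a lay above Kdm5b (5.94 to 11.3 TPM) and Kdm5c (4.75 to 18.1), without overlap. Their expression-weighted lengths, over all transcripts, were 2252, 5113 and 2767 bases. In CPM, not scaled for length, the WT ranges were 95.4 to 177, 51.8 to 64.8 and 27.5 to 74.5. The coding share of Kdm5a is not given here, so the size of its lead in TPM is not set.

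The estimates for single transcripts show which products carry the counts. For Chd6 the full coding transcript, of 10515 bases, took 66.6% to 92.6% of the counts in KO and 72.7% to 82.3% in WT. For Kdm6b the coding transcript, of 6654 bases, took 96.3% to 99.8% in KO and 95.7% to 100% in WT. The main Ino80d transcript, of 13675 bases, took 79.8% to 100% in KO and 38.6% to 100% in WT. A coding Ino80d transcript of 1795 bases took up to 61.4% in WT. The main Kdm5b transcript, of 8714 bases, took 50.8% to 81.6% in KO and 63.9% to 98.4% in WT. For Chd3, by contrast, transcripts annotated as retained introns took 61.9% to 76.9% of the counts in KO and 61.4% to 89.8% in WT, and for Arid5a 26.0% to 45.4% and 29.0% to 96.5%. Over the coding members together, retained introns took 7.65% to 9.89% in KO and 6.22% to 8.89% in WT, with overlap. Smarca5 was one gene with a higher share in KO, 3.65% to 16.0%, beside 0% to 4.32% in WT, ranges that overlap.

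The partners of these proteins, 74 genes tested from 5 lists, showed 3 that rose and 4 that fell, where 1.32% and 2.67% of all genes did, and their median fold change was -0.01. Among 19 BAF and PBAF partners, Bcl7c rose (log2 1.10, SE 0.28, adjusted p = 0.0856, edgeR), while the PBAF subunits Brd7 and Phf10 fell (log2 -0.76 and -1.16, adjusted p = 0.0913 and 0.0976, edgeR). Phf10 was at 35.1 to 65.5 CPM in KO and at 223, 93.4, 82.7 and 61.0 in WT, with WT 15416 far above the others. Among 9 ISWI partners Baz2a, the TIP5 subunit of the nucleolar remodeler NoRC, rose and lay at 45.4 to 73.7 CPM in KO and 19.6 to 36.1 in WT (log2 0.95, SE 0.23, adjusted p = 0.0830, edgeR). Of the 12 NuRD partners and the 16 other JmjC and CoREST genes, 0 passed in either direction.

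The 18 INO80 and SWR1 partners held calls in both directions. Trrap, a scaffold of acetyltransferase complexes, was at 111 to 176 CPM in KO and 52.9 to 90.3 in WT (log2 1.05, SE 0.21, adjusted p = 0.0824, edgeR). Uchl5, a deubiquitinase of INO80 and the proteasome, was at 162 to 231 CPM in KO and 267 to 694 in WT (log2 -1.01, SE 0.25, adjusted p = 0.0836, edgeR), and the helicase Ruvbl2 at 161 to 266 and 336 to 695 CPM (log2 -0.87, SE 0.23, adjusted p = 0.0910, edgeR). Groups did not overlap for these 3. The top of the WT range was WT 15416 for both Uchl5 and Ruvbl2, and the other WT libraries were at 267 to 334 and 336 to 357 CPM. Fits of the partners without that library are not given here. Expression-weighted transcript lengths, over coding and non-coding transcripts, were 7785 bases for Baz2a, 2226 for Trrap and 1223 for Bcl7c, which rose. They were 1356 for Ruvbl2, 1354 for Brd7, 874 for Phf10 and 587 for Uchl5, which fell.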

How the data were processed

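Bulk RNA-seq libraries of LT-HSCs (6 KO, 4 WT) were analyzed from the files of the authors, who quantified single-end SmartSeq2 reads with kallisto 0.44.0 (GRCm38) after demultiplexing with bcl2fastq 2.20. The authors deposited, per library, estimated counts and TPM for each transcript, and 1 table of counts per gene, which are estimates rounded to whole numbers and not scaled. Some genes with transcript estimates, among them Kdm5d, Uty and Riok2, have no row in that gene table and were not tested. The gene counts were within 1 count of transcript sums for 97.5% of values. Transcripts were joined to genes by Gencode vM21, a later release than the vM16 of the authors on the same build. It matched 16943 symbols and all 55 members.

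The test was edgeR 4.0.16 (R 4.3.3), with TMM factors, robust glmQLFit and glmQLFTest, on genes with at least 11 counts in total, with Benjamini-Hochberg adjustment over all 16725 genes and a threshold of 0.1. Standard errors and 95% intervals come from the F statistic. DESeq2 1.42.0, with the log2 fold-change threshold of 0.1 of the study and without one, was an alternative. Other alternatives were DESeq2 size factors, other filters, no robust option, a loess length offset (span 0.3), Xist log2 CPM (0.5 added) as a covariate, an adjusted p below 0.05 and each library left out. Chosen after seeing the data were Chd1 from its own transcripts and the libraries above 50 CPM of Xist only. Lengths are transcript lengths weighted by mean TPM, grouped into 10 classes. Paralog ratios used counts plus 0.5. Scripts were tested on simulated data. Reads carry no molecular identifiers, so depth limits precision beyond counting error.

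The members, lists and tests were chosen with earlier results of these data known. The genes described one by one are the 10 with the smallest p on the positive and the 6 on the negative side, the 6 paralog pairs, the sex-linked Kdm genes, Spi1, Tnfrsf11a and partners past the test. Other genes are named to account for every member. Promoters are from RefSeq (GRCm38.p6).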

Additional observations from a re-analysis of the deposited data

Results flagged for a closer look

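In 7 of 52 groups of libraries tested, 1 library stood apart from the rest of its group by Dixon's ratio, the gap to the nearest library divided by the range. Chance flags about 1 in 20 groups. Values are TMM-normalized CPM.

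Smarce1 was at 199 CPM in KO 15409 and 139 to 160 in the other KO libraries (ratio 0.641). Smarcc1 was at 142 CPM in KO 15412, beside 76.8 to 99.2 in the others (0.658). Chd3 was at 13.8 CPM in WT 15416, beside 36.9 to 39.8 (0.890). Kdm5c was at 74.5 CPM in WT 15418, beside 27.5 to 35.0 (0.842). Arid1a was at 130 CPM in WT 15418, beside 142 to 144 (0.838), a small gap in a narrow group. The pseudogene Smarca5.ps was at 2.65 CPM in WT 15416, beside 0 to 0.177 (0.933), and at 0.773 CPM in KO 15412, beside 0 to 0.131 (0.830).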

How the results depend on the processing

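The number of members that rose, 4, was 7 in DESeq2 with a fold-change threshold and 12 without one, and 0 with the length offset, with the Xist covariate, in the libraries with Xist only and at an adjusted p below 0.05. Leaving out single libraries gave 0 to 7. For these fits and those with Xist, the share of all genes that rose is not given here. The number that fell, 0, was 1 with the length offset. Median fold changes with that offset, whose median over all genes is -0.17, were 0.018 over all members, 0.26 for Arid, 0.18 for Chd, -0.035 for Kdm and -0.24 for Smarc, and in the libraries with Xist only 0.33 for Arid and 0.13 for Smarc. With single libraries left out, the medians spanned 0.25 to 0.62 for Kdm (highest without WT 15418), 0.052 to 0.39 for Ino80 (lowest without WT 15420) and -0.12 to 0.12 for Smarc (lowest without WT 15420), and the median difference from the length class 0.066 to 0.20 (lowest without WT 15417). The ratio differences spanned 0.36 to 0.91 for Chd3 over Chd4, 1.13 to 1.52 for Kdm6b over Kdm6a and -0.000259 to 0.57 for Smarcc2 over Smarcc1.

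The sign of the fold change turned for Smarca4 (-0.39), Arid1a (-0.18), Chd4 (-0.16) and Smarcc2 (-0.12) with the length offset. The median of all genes in that fit was -0.17, so 0 is not its midpoint. Kdm6a turned to 0.26 with the Xist covariate, 0.42 in the libraries with Xist only and spanned -0.21 to 0.21 with single libraries left out. Smarca5.ps then spanned -4.27 to 1.31 and Smarcc1 -0.20 to 0.085, each positive only without WT 15416. The causes were not tested. Of the other values for named genes, 473 kept direction and side of the threshold, 39 lost the call and 18 gained it. No paired analysis was made because the labels do not give the litter of each embryo, and litter was not in any fit.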
